A study of Mus musculus with 2 samples.

Results

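Calcium and magnesium that reach the distal nephron are taken back into the blood by a small group of genes, and 10 of them are described here in single cells of injured mouse kidney: Calb1, S100g, Slc8a1, Trpv5, Trpm6, Pvalb, Egf, Cldn16, Cldn19 and Casr. They were chosen by symbol for their known role rather than by a measured value, though earlier results of these data were known. All 10 were found among the 31058 features counted. Both groups were whole kidneys of female C57Bl/6 mice aged 9 weeks with the genotype Pax8.rtTA;TetO.Cre;R26.FUCCI2aR: Pax8, a gene of tubule cells, drives an inducible Cre that switches on a fluorescent cell cycle reporter. All had rhabdomyolysis, the breakdown of muscle that injures kidney tubules. One library came from mice that also had CA3, which is known to inhibit the co-activator YAP1, and one from mice that also had vehicle. The sources used here give no dose, no time after injury and no number of animals per library, and no library without injury was analysed here. With 1 library per group there is no replicate check, so no p-value is given, and every interval below is a 95% interval that covers counting error only.

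In the thick ascending limb, calcium and magnesium pass between cells, through a pore formed by claudin-16 and claudin-19, and the calcium-sensing receptor encoded by Casr restrains that passage. In the distal convoluted tubule, magnesium enters through the channel encoded by Trpm6, and the growth factor encoded by Egf is known to raise the activity of that channel. In the late convoluted and connecting tubule, calcium enters through the channel encoded by Trpv5, is carried across the cell by the binding proteins calbindin-D28k (Calb1) and calbindin-D9k (S100g), and leaves through the sodium/calcium exchanger NCX1 (Slc8a1) and plasma membrane pumps.

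The start regions of 4 of the genes are printed because their levels carry most of the differences described below. S100g and Trpv5 stood higher in principal-like cells of the CA3 library, and Slc8a1 stood lower in its connecting-type cells. Egf stood lower by class sums in each of the 4 classes described below, short of 1.5-fold in the thick ascending limb. In principal-like cells most vehicle UMIs of Egf lay in few cells. Each line gives the 250 bases before the annotated start from RefSeq (build GRCm38.p6), in the direction of the gene. All 4 genes lie on the minus strand, at chrX:162964600-162964849 for S100g, chr17:81738388-81738637 for Slc8a1, chr6:41680724-41680973 for Trpv5 and chr3:129755323-129755572 for Egf. Capitals mark the letters TATAAA, the core of the TATA box, and AGGTCA on either strand, the repeated unit of sites that bind nuclear receptors such as the vitamin D receptor.
S100g: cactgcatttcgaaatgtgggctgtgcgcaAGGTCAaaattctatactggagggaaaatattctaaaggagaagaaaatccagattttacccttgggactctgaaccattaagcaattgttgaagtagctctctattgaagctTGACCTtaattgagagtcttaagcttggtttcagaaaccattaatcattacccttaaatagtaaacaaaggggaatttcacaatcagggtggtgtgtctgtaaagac
Trpv5: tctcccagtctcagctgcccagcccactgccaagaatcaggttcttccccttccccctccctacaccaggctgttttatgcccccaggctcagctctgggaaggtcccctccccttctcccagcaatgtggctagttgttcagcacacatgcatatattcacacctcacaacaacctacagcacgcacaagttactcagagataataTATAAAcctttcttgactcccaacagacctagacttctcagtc
Slc8a1: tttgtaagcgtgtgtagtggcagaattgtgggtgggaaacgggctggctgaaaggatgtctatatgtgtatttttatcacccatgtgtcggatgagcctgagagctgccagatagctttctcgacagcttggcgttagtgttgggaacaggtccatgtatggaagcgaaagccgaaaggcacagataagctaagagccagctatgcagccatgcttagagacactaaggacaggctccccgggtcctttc
Egf: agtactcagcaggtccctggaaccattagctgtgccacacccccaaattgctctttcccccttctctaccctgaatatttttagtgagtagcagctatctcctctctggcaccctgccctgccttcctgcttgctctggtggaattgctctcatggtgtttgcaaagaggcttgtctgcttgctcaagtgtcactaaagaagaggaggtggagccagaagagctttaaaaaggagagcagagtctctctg

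Motifs were searched on both strands in 300 bases, from 250 before to 50 after the start, for the 9 of 10 genes with an entry, all but Calb1 (12 start sites). TATAAA was found in 2 of them, in Trpv5 from position -43 and in S100g from position 1, the annotated start itself, which lies outside the bases printed. The same letters were in 13.6% of all 32851 start regions. AGGTCA was found in S100g alone, from position -220 on the gene's strand and from position -107 on the other, and in 16.3% of all start regions. The direct repeat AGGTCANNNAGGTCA, in which N is any base, was in 0 of the 9 genes and in 0.00609% of all start regions. These matches describe letters and show no binding.

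The CA3 library held 1724 cell barcodes and the vehicle library 1967, with 17013222 and 19592239 UMIs (unique molecular identifiers, each counted as 1 captured transcript). The median was 7278 UMIs per barcode in the CA3 library and 7307 in the vehicle library, and the median share of mitochondrial transcripts was 20.23% in the CA3 library and 19.05% in the vehicle library. The limit for that share was set at 80%, since distal tubule cells hold many mitochondria, which kept 1634 CA3 and 1907 vehicle cells. The libraries shared 1 cell barcode. A doublet caller marked 0 CA3 cells and 1 vehicle cell, too few for it to have worked, so doublets may remain.

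Clusters were made with the 10 genes left out and were named from marker genes. The thick ascending limb-like class held 45 CA3 and 57 vehicle cells, the distal convoluted-like class 43 and 34, the distal convoluted/connecting-like class 23 and 29, and the principal-like class 18 and 24. Levels below are UMIs of a gene summed over the cells of a class and library, per 1000000 non-mitochondrial UMIs (CPM). The classes were checked on defining markers: Slc12a1, the salt cotransporter of the thick ascending limb, stood at 8686 CPM in CA3 and 10786 CPM in vehicle cells of the limb class, and Slc12a3, that of the distal convoluted tubule, at 13985 and 12805 CPM in the convoluted class. The distal convoluted/connecting-like class joined 2 sub-clusters and carried Slc12a3 at 4925 CPM in CA3 and 7032 CPM in vehicle cells together with Klk1, tissue kallikrein of the connecting tubule, at 33543 and 34056 CPM. The principal-like class carried Aqp2, the vasopressin-regulated water channel, at 2355 CPM in CA3 and 4006 CPM in vehicle cells. It also holds connecting-type cells: its 12 principal markers summed to 12616 CPM in CA3 and 17094 CPM in vehicle, and the 8 connecting markers to 28786 and 9764 CPM.

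Some classes were uneven between the libraries in ways that touch the results. The median cell of the distal convoluted-like class had 3656 non-mitochondrial UMIs in the CA3 library and 7518 in the vehicle library, and a shallow sub-cluster with a high mitochondrial share held 24 of 43 CA3 cells but 13 of 34 vehicle cells. In the distal convoluted/connecting-like class these medians were 3088 and 5872, in the thick ascending limb-like class 5463 and 6400, and in the principal-like class 16718 and 16228.

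The 10 genes were concentrated in these cells. The 4 classes made up 7.71% of all kept cells and held between 64.0% (Cldn16) and 84.6% (Pvalb) of each gene's UMIs. By class sums, the order of levels along the nephron was the same in both libraries at its top end for all genes but Trpv5. Calb1, S100g and Slc8a1 were highest in the distal convoluted/connecting-like class, Trpm6 and Pvalb in the distal convoluted-like class, and Egf, Cldn16, Cldn19 and Casr in the thick ascending limb-like class. Trpv5 was highest by class sums in principal-like cells of the CA3 library and in distal convoluted/connecting-like cells of the vehicle library. As a mean over cells the principal-like class stood above the distal convoluted/connecting-like class in both libraries. These means were 180 against 95.6 CPM in CA3 and 160 against 147 CPM in vehicle.

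A gene was counted in a class with at least 20 UMIs over both libraries, and called higher or lower at 1.5-fold or more. In the thick ascending limb-like class 6 of the 10 genes were counted, of which 0 were called higher and 3 lower in CA3, where 11.3% of all 5843 genes counted were higher and 14.3% lower. In the distal convoluted-like class 6 were counted, 0 higher and 2 lower, beside 11.7% and 11.9% of 4553 genes. In the distal convoluted/connecting-like class 6 were counted, 0 higher and 3 lower, beside 10.8% and 19.9% of 3291 genes. In the principal-like class 5 were counted, 3 higher and 1 lower, beside 9.01% and 18.2% of 6789 genes. The median log2 ratio of CA3 over vehicle over the counted members was -0.81, -0.19, -0.43 and 1.28 in the 4 classes in this order, beside -0.02, 0.02, -0.04 and -0.09 over all genes counted. Over the cells of the 4 classes summed, all 10 were counted, S100g and Trpv5 being higher (ratios 1.66 and 1.78) and Slc8a1 and Egf lower (ratios 0.644 and 0.632), beside 6.75% higher and 9.62% lower of 9576 genes. Over all kept cells 0 of the 10 were higher and 4 lower, Slc8a1, Trpm6, Egf and Cldn16, beside 6.92% of 14009 genes in each direction.

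Trpv5, the calcium entry channel (chr6:41652173-41680769, mm10), had 85 UMIs in CA3 and 53 in vehicle principal-like cells. That is 240 CPM in CA3 and 93.2 CPM in vehicle, with a median over cells of 205 and 123 CPM. The ratio was 2.57 (1.80 to 3.70), past counting error, but the call held in 9 of 14 alternatives only. The ratio was 1.13 as a mean over cells, 1.24 in cells without a UMI of Slc12a1 and 0.444 after thinning, from 4 UMIs. In distal convoluted/connecting-like cells the channel had 16 UMIs in CA3 and 42 in vehicle (133 and 146 CPM), and the ratio of 0.910 has an interval of 0.478 to 1.65. It was 0.582 without the 3 cells with most Trpv5 and 0.346 with classes gated on marker UMIs. In the other 2 of the 4 classes it had few UMIs: 5 UMIs in CA3 and 1 in vehicle distal convoluted-like cells, and 0 and 2 in thick ascending limb-like cells.

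Trpm6, the magnesium entry channel (chr19:18749983-18892511), had its highest class sum in the distal convoluted-like class, with 311 CPM in CA3 and 356 CPM in vehicle cells (78 and 120 UMIs). The ratio there was 0.875, and its interval of 0.649 to 1.17 holds 1. At a mitochondrial limit of 25% it was 0.438. The distal convoluted/connecting-like class had 125 CPM in CA3 and 244 CPM in vehicle cells (15 and 70 UMIs), a ratio of 0.512 (0.272 to 0.903). By class sums the convoluted class thus stood above its neighbour in both libraries, by 2.49 times (1.42 to 4.67) in CA3 and 1.46 times (1.08 to 1.99) in vehicle. As a mean over cells this held in CA3, with 269 CPM against 125 CPM. In vehicle the 2 means were alike, with 259 CPM in the convoluted class and 261 CPM in its neighbour. The lower level in distal convoluted/connecting-like cells of the CA3 library depends on how the sub-clusters are drawn: at a coarser resolution the ratio was 1.13. Principal-like cells held 11 UMIs in CA3 and 8 in vehicle, and thick ascending limb-like cells 0 and 3.

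Calb1, the larger calbindin (chr4:15881264-15908064), had its peak in distal convoluted/connecting-like cells, with 17487 CPM in CA3 and 16899 CPM in vehicle. Cells of this class ranged from 336 to 46479 CPM in CA3 around a median of 15115, and from 784 to 53936 CPM in vehicle around a median of 12602, so every cell carried it. The ratio was 1.03, within 1.5-fold. The distal convoluted-like class had 3101 CPM in CA3 and 3524 CPM in vehicle, a ratio of 0.880, with cells reaching 24202 and 21186 CPM around medians of 645 and 1101. That ratio moved with the cells included: it was 0.536 without the 3 cells with most Calb1 in each library and 1.75 at a mitochondrial limit of 25%. In principal-like cells Calb1 stood at 5802 CPM in CA3 and 2395 CPM in vehicle, with cell medians of 2944 and 1496 CPM. This ratio was 2.42 (2.26 to 2.60). Thick ascending limb-like cells had little, 22.6 CPM in CA3 and 165 CPM in vehicle (7 and 84 UMIs), a ratio of 0.137 (0.0535 to 0.295).

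S100g, the small calbindin whose gene is known to respond to vitamin D (chrX:162961992-162964599), was likewise highest in the connecting-type class, with principal-like cells next in both libraries. Distal convoluted/connecting-like cells had 60605 CPM in CA3 and 49280 CPM in vehicle, a ratio of 1.23, with cell medians of 47153 and 41854 CPM. Principal-like cells had 37953 CPM in CA3 and 10717 CPM in vehicle. Their ratio was 3.54 (3.44 to 3.65), and the cell medians were 36251 and 3940 CPM. Markers of other cells differed in this class too: the 10 proximal tubule markers summed to 164 CPM in CA3 and 1205 CPM in vehicle, the 7 thin limb markers to 73.3 and 499 CPM, and the 7 markers of injured tubule to 15411 and 7116 CPM. The median mitochondrial share was 26.4% in CA3 and 17.7% in vehicle. Their part in the result was not tested. In the CA3 library the connecting-type class therefore exceeded the principal-like class by 1.60 times, and in the vehicle library by 4.60 times. The distal convoluted-like class had 4618 CPM in CA3 and 3403 CPM in vehicle (ratio 1.36), of which 3 cells held 68.5% in CA3 and 79.5% in vehicle. Without those cells 1548 CPM remained in CA3 and 736 CPM in vehicle, a ratio of 2.10.

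In thick ascending limb-like cells S100g stood at 239 CPM in CA3 and 715 CPM in vehicle (74 and 364 UMIs), a ratio of 0.335 (0.257 to 0.431). The vehicle value came mostly from few cells: 3 of them held 290 of the 364 S100g UMIs and 68 of the 84 Calb1 UMIs, and the same 3 cells held 161 UMIs of Slc12a3 beside 495 of Slc12a1. Without the 3 cells with most S100g in each library the levels were 200 CPM in CA3 and 164 CPM in vehicle, and the ratio turned to 1.22. In limb cells without a UMI of Slc12a3, 42 of 45 in CA3 and 47 of 57 in vehicle, S100g stood at 246 CPM in CA3 and 248 CPM in vehicle. The lower S100g of the limb class in CA3 was therefore not seen in cells without a UMI of the next segment's marker. This choice of cells also favours shallow ones. For Calb1 the same cells gave a ratio of 0.425 from 25 UMIs.

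Pvalb encodes parvalbumin, a calcium buffer of the early distal convoluted tubule (chr15:78191114-78206400), and among the 4 classes it lay mostly in the distal convoluted-like one. That class held 686 CPM in CA3 and 1135 CPM in vehicle (172 and 383 UMIs), a ratio of 0.605 (0.502 to 0.726). A UMI was present in 21 of 43 CA3 cells and 25 of 34 vehicle cells, and the median cell had 0 CPM in CA3 and 886 CPM in vehicle. The share depends on depth: with every cell thinned to 1000 UMIs it was 34.9% in CA3 and 44.1% in vehicle. The other 3 classes held at most 6 UMIs in either library. Over 13 alternatives its ratio ran between 0.390 and 0.819 and was past 1.5-fold in 10.

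Slc8a1, the exchanger that moves calcium out at the blood side (chr17:81373105-81738377), had 1023 CPM in CA3 and 1721 CPM in vehicle distal convoluted/connecting-like cells (123 and 494 UMIs). The cell medians were 969 and 1550 CPM and the highest cells 2467 and 5051 CPM. The ratio was 0.595 (0.484 to 0.726), below 1.5-fold in 10 of 11 alternatives (range 0.151 to 0.771). In the same cells, Calb1 and S100g were within 1.5-fold between the libraries. This difference among the 3 genes rests on how the class was drawn: with cells gated on marker UMIs, a class that shares 5 CA3 and 8 vehicle cells with this one, the ratios were 0.151 for Slc8a1, 0.266 for Calb1 and 0.292 for S100g. The exchanger was within 1.5-fold in principal-like cells, with 296 CPM in CA3 and 227 CPM in vehicle (ratio 1.31, 0.999 to 1.70), and in distal convoluted-like cells, with 132 and 127 CPM (ratio 1.03, but 1.67 without the 3 cells with most Slc8a1 and 0.469 with gated classes). In thick ascending limb-like cells it had 1 UMI in CA3 and 3 in vehicle.

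Egf, whose precursor is shed from the membrane of distal tubule cells (chr3:129677565-129755316), was the gene with the most widespread difference. It was highest in the thick ascending limb-like class, at 6607 CPM in CA3 and 8924 CPM in vehicle, with cell medians of 7841 and 9534 and highest cells of 21911 and 30856 CPM. The ratio of 0.740 (0.702 to 0.780) did not reach 1.5-fold. The distal convoluted-like class had 2008 CPM in CA3 and 4790 CPM in vehicle (503 and 1616 UMIs), a ratio of 0.419 (0.378 to 0.463), with cell medians of 1321 and 3251 CPM. Distal convoluted/connecting-like cells had 200 CPM in CA3 and 881 CPM in vehicle (24 and 253 UMIs), a ratio of 0.227 (0.143 to 0.345). A UMI was found in 6 of 23 CA3 cells and 14 of 29 vehicle cells there. Principal-like cells had 39.5 CPM in CA3 and 561 CPM in vehicle (14 and 319 UMIs), a ratio of 0.0704 (0.0380 to 0.120).

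Genes of the thick ascending limb differed together with Egf in some of these classes. In distal convoluted-like cells Umod, the uromodulin gene of the limb, had 3285 CPM in CA3 and 8967 CPM in vehicle, a ratio of 0.366, and Slc12a1 had 5 and 88 UMIs. The whole list of 10 limb markers summed to 4274 CPM in CA3 and 10304 CPM in vehicle there. In the cells of this class without a UMI of Slc12a1 (39 of 43 in CA3, 26 of 34 in vehicle) Egf stood at 2045 CPM in CA3 and 4975 CPM in vehicle, a ratio of 0.411, while Umod in these cells stood at 3410 and 8839 CPM. Without the shallow sub-cluster the Egf ratio was 0.460. The part of limb RNA in the Egf difference of this class was not tested. In distal convoluted/connecting-like cells Umod went the other way, with 532 CPM in CA3 and 293 CPM in vehicle, and the limb list was alike at 1298 and 1324 CPM. Here 164 of the 253 vehicle UMIs of Egf lay in 3 cells. All 29 vehicle cells of this class held 0 UMIs of Slc12a1, so that marker cannot set these 3 apart. They had more Umod than the other vehicle cells, 825 against 178 CPM, and more Slc12a3, 12222 against 5914 CPM. The part of limb RNA in the Egf difference was not tested here either.

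In principal-like cells 294 of the 319 vehicle UMIs of Egf lay in 3 cells, which also held 301 UMIs of Slc12a1 and 690 of Umod. Slc12a1 stood there at 36.7 CPM in CA3 and 572 CPM in vehicle, and Umod at 178 and 1402 CPM. Among principal-like cells without a UMI of Slc12a1, 15 of 18 in CA3 and 15 of 24 in vehicle, Egf was at 18.8 CPM in CA3 and 19.7 CPM in vehicle, a ratio of 0.955 from 9 UMIs. In these cells a difference of Egf was not detectable at this depth.

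Cldn16 and Cldn19, the claudins of the paracellular cation pore (chr16:26463135-26482765 and chr4:119255414-119262438), were highest in the thick ascending limb-like class. Cldn16 had 149 CPM in CA3 and 173 CPM in vehicle (46 and 88 UMIs), a ratio of 0.860 (0.589 to 1.24). Cldn19 had 310 CPM in CA3 and 322 CPM in vehicle (96 and 164 UMIs), a ratio of 0.963 (0.741 to 1.25). Neither reached 1.5-fold, and the intervals leave room for differences of up to those bounds. The Cldn16 ratio ran from 0.400 to 0.9502 over 13 alternatives and was past 1.5-fold in 2: with cells thinned to 1000 UMIs, 11.1% of CA3 and 24.6% of vehicle limb cells held a UMI. Of the 4 classes, the other 3 held at most 2 UMIs of Cldn16 and 0 of Cldn19 in CA3, and at most 5 and 8 in vehicle. Outside these classes thin limb-like cells held 9 UMIs of Cldn19 in CA3 and 25 in vehicle, and 0 and 16 of Cldn16. Both claudins were detected in the same cell in 20 of 45 CA3 and 30 of 57 vehicle limb cells, 44.4% and 52.6%, where their separate shares would give 40.3% and 46.3% if they were independent.

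Casr, the calcium-sensing receptor (chr16:36493696-36562141), was the one of the 4 limb genes past 1.5-fold between the libraries. It had 55.0 CPM in CA3 and 128 CPM in vehicle limb cells, from 17 and 65 UMIs, a ratio of 0.430 (0.237 to 0.743). A UMI was seen in 13 of 45 CA3 and 29 of 57 vehicle cells, 28.9% and 50.9%. After thinning to 1000 UMIs per cell these shares were 4.44% (0.543 to 15.1) in CA3 and 21.1% (11.4 to 33.9) in vehicle. The ratio was past 1.5-fold in all 13 alternatives, between 0.181 and 0.652. In CA3 the limb stood above the distal convoluted-like class, at 39.9 CPM, by 1.38 times with an interval of 0.596 to 3.37 that holds 1, and in vehicle above the distal convoluted/connecting-like class, at 20.9 CPM, by 6.11 times (2.66 to 17.3). Outside the limb the counts were too low to call, with 10 UMIs in CA3 and 6 in vehicle convoluted cells and 8 and 4 in principal-like cells.

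The principal-like class held 2 kinds of cells by its S100g, which was left out of the clustering. The split at 5000 CPM was chosen after the values were seen and carries no test. At or above it lay 13 of 18 CA3 cells (72.2%, 46.5 to 90.3) and 12 of 24 vehicle cells (50%, 29.1 to 70.9), with 0 CA3 and 3 vehicle cells near the limit. The intervals of these shares overlap. The S100g-rich cells also carried most of the Trpv5, at 297 CPM in CA3 and 216 CPM in vehicle, and more Klk1, at 23380 and 5462 CPM. Calb1 in these cells stood at 6940 CPM in CA3 and 5472 CPM in vehicle, and Slc8a1 at 367 and 543 CPM. The cells below the split carried more Aqp2, 6316 CPM in CA3 and 5639 CPM in vehicle, against 1411 and 1363 CPM above it.

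Within the S100g-rich cells the ratio of CA3 over vehicle was 1.27 for Calb1 and 1.37 for Trpv5. S100g itself stood there at 46967 CPM in CA3 and 27616 CPM in vehicle, and below the split at 132 and 279 CPM, but since it chose the cells nothing is read from its ratio on either side. Of the connecting list, most of the gap over the whole class was Klk1, at 18895 CPM in CA3 and 2211 CPM in vehicle, of which 1 cell held 33.9% in CA3. The other 7 connecting markers summed to 9892 CPM in CA3 and 7554 CPM in vehicle (Hsd11b2 and Scnn1g are in both lists). The part of the connecting-type cells in the higher calcium genes was not tested. In principal-like cells without a UMI of Slc12a1 the ratios were 1.64 for S100g, 1.25 for Calb1 and 1.24 for Trpv5. That choice also favours shallow cells. The deepest vehicle cell, with 77934 non-mitochondrial UMIs and 295 CPM of S100g, was left out. The deepest CA3 cell, with 54378 UMIs and 17820 CPM of S100g, was kept. The part of depth in these ratios was not tested.

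UMIs of these genes were also found in cells outside the distal classes, most often those of S100g. Whether they came from free RNA in the droplets or from the cells themselves was not tested. After thinning, a UMI of S100g was found in 37.8% of CA3 and 29.4% of vehicle proximal tubule-like cells and in 25% and 13.7% of T or NK-like cells, whose median non-mitochondrial depths were 5708 and 5462 UMIs (proximal) and 5700 and 4748 UMIs (T or NK). The thick ascending limb-like class, with 33.3% in CA3 and 22.8% in vehicle, did not exceed the proximal share, though it stood above that of T or NK-like cells. The share of Calb1 was 4.85% in CA3 and 3.18% in vehicle proximal tubule-like cells, that of Egf 1.56% and 2.32%, and that of every other member at most 0.27%. Against this, distal convoluted/connecting-like cells had Calb1 in 100% of cells of both libraries, S100g in 95.7% in CA3 and 96.6% in vehicle, and Slc8a1 in 47.8% and 65.5%. Principal-like cells had S100g in 83.3% of CA3 and 58.3% of vehicle cells.

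S100g in the proximal tubule-like class stood at 507 CPM in CA3 and 341 CPM in vehicle, a ratio of 1.49. It was higher in CA3 in each of the 11 proximal clusters, which ran from 161 to 988 CPM in CA3 and from 115 to 640 CPM in vehicle. These clusters share the same libraries, so they do not repeat the result. S100g was also higher in CA3 in T or NK-like (292 and 108 CPM), B-like (402 and 77.8), endothelial-like (469 and 140) and mononuclear phagocyte-like cells (172 and 118). It was lower in thick ascending limb-like cells and in a sub-cluster with limb and convoluted markers (2033 and 2455 CPM). Intercalated-like cells had 3857 CPM of S100g in CA3 and 1106 CPM in vehicle, with cell medians of 737 and 108 CPM. There 3 cells held 919 of the 1058 UMIs in CA3 and 206 of the 223 in vehicle. The proximal class held 12.2 S100g UMIs for each Calb1 UMI in CA3 and 12.8 in vehicle, the immune classes 4.92 and 5.85, and the distal convoluted/connecting-like class, the richest source of both, 3.47 and 2.92. The proximal class thus held more S100g per Calb1 than the class richest in both, in either library. It was not alone in this: principal-like cells held 6.54 in CA3 and 4.47 in vehicle, and thick ascending limb-like cells 10.6 and 4.33. Intercalated-like cells held 17.9 in CA3, above the proximal class, and 6.97 in vehicle. Distal convoluted-like cells went the other way, with 1.49 and 0.966.

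Cells with a high mitochondrial share carried the limb genes too. Of the thick ascending limb-like cells 8 in CA3 and 10 in vehicle had over 50% mitochondrial UMIs. Egf in these stood at 9521 CPM in CA3 and 10302 CPM in vehicle, against 6446 and 8804 CPM in limb cells up to 50%. Cldn19 had 247 CPM in CA3 and 467 CPM in vehicle over 50% (4 and 19 UMIs), and 314 and 310 CPM up to it. Casr was lower in CA3 up to 50%, with 54.6 CPM in CA3 and 126 CPM in vehicle (16 and 59 UMIs). Over 50% it had only 1 UMI in CA3 and 6 in vehicle, 61.8 CPM (1.57 to 344) and 148 CPM (54.1 to 321). These intervals overlap, so no direction is read there. In distal convoluted-like cells Egf differed less between the libraries over 50%, with 3573 CPM in CA3 and 4066 CPM in vehicle, than up to 50%, with 1602 and 4890 CPM.

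Pairs of members were sought in the same cells. Of the distal convoluted/connecting-like cells 22 of 23 in CA3 and 29 of 29 in vehicle held both calbindins, and 18 of 23 and 26 of 29 held Calb1 with Slc8a1. Every cell of this class held Calb1, so these shares had to equal those under independence. They were 95.7% and 100% for both calbindins and 78.3% and 89.7% for Calb1 with Slc8a1, and nothing is read from them. In the distal convoluted-like class Pvalb and Trpm6 were found together in 13 of 43 CA3 cells and 17 of 34 vehicle cells, 30.2% and 50%, where independence would give 28.4% and 43.3%. These pairs share depth, since a deeper cell shows more of every gene.

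Across 22 sums, those of 11 classes in each library, likeness was measured between genes. The genes most like Calb1 among 12533 were Pgam2, S100g and Slc8a1 (Pearson r of log2(CPM + 1) 0.958, 0.955 and 0.937), and those most like S100g were Calb1, Trpv5 (0.954) and Mymx (0.905). Slc8a1 was most like Calb1, Pgam2 (0.903) and Ltc4s (0.899), and Trpv5 most like Ptges (0.956), S100g and Scnn1g (0.945), a subunit of the epithelial sodium channel. Egf was most like Umod (0.922), Wfdc15b (0.895) and 1110019B22Rik (0.895), and Pvalb most like Slc12a3 (0.785), Camta1 (0.749) and Gm15848 (0.739). Trpm6 was most like Sall3 (0.869), Sgms2 (0.808) and Vegfd (0.807). Cldn16 was most like Sim2 (0.890), Dusp9 (0.870) and Ephb2 (0.837), Cldn19 most like Egfl6 (0.914), Adcy1 (0.907) and Irx1 (0.896), and Casr most like Gcgr (0.937), Arfgef3 (0.930) and Slc16a5 (0.921). The 22 sums share libraries and classes, so these values only describe the pattern.

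Around the 10 members, 72 further genes of calcium, magnesium, paracellular and salt transport were followed as lists. In thick ascending limb-like cells 45 of them were counted, 6 higher and 6 lower in CA3. In distal convoluted-like cells 45 were counted, 5 higher and 6 lower, in distal convoluted/connecting-like cells 41, 3 higher and 1 lower, and in principal-like cells 56, 11 higher and 10 lower. The shares over all genes in each class are those given above for the members (in the limb 11.3% higher and 14.3% lower, in principal-like cells 9.01% and 18.2%), and the list's counts lie near them except in 2 cases: more list genes were higher in principal-like cells, and fewer were lower in distal convoluted/connecting-like cells, where 19.9% of all genes were. Nothing particular to the lists is read from these counts. The calcium list of 25 genes had 13 counted in the limb, 3 higher and 1 lower, and 17 counted in principal-like cells, 5 higher and 1 lower. Of the magnesium list of 18 genes 11 were counted in the distal convoluted-like class, 1 higher and 0 lower, where 11.7% and 11.9% of all genes were. Its member Cnnm2, a magnesium transporter of the blood side, had 231 CPM in CA3 and 243 CPM in vehicle, and Fxyd2, the sodium pump's gamma subunit, 12532 and 13031 CPM.

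Further list genes showed how the classes differed around the members. In thick ascending limb-like cells Tjp1, a tight junction scaffold, had 25.9 CPM in CA3 and 76.6 CPM in vehicle, and Pth1r, the parathyroid hormone receptor, 388 and 224 CPM. Slc12a3 had 12.9 CPM in CA3 and 350 CPM in vehicle limb cells. In distal convoluted-like cells Kl, the FGF23 co-receptor klotho, had 942 CPM in CA3 and 1512 CPM in vehicle, and Klk1 2838 and 1758 CPM. Vdr, the vitamin D receptor, had 239 CPM in CA3 and 365 CPM in vehicle distal convoluted-like cells, 690 and 686 CPM in distal convoluted/connecting-like cells, and 333 and 158 CPM in principal-like cells. In principal-like cells the difference of Vdr therefore had the direction of S100g, while in distal convoluted/connecting-like cells both were within 1.5-fold. In the other classes the 2 genes went opposite ways. In distal convoluted-like cells Vdr stood lower in CA3 and S100g higher (ratio 1.36). In thick ascending limb-like cells Vdr had 80.8 CPM in CA3 and 64.8 CPM in vehicle, where the S100g ratio was 0.335. A link between the 2 genes was not tested.

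Trpm7, the relative of Trpm6, had 150 CPM in CA3 and 313 CPM in vehicle distal convoluted/connecting-like cells, a ratio of 0.478 (0.271 to 0.799), near that of Trpm6 in the same cells. Gna11, a G protein alpha subunit downstream of the calcium-sensing receptor, had 99.8 CPM in CA3 and 59.2 CPM in vehicle there, with an interval that holds 1. In principal-like cells Klk1 had 18895 CPM in CA3 and 2211 CPM in vehicle, and Cldn10, a limb claudin, 8.46 and 135 CPM. Atp2b1, a plasma membrane calcium pump that works beside Slc8a1, was within 1.5-fold in all 4 classes, between 139 and 180 CPM in CA3 and between 149 and 184 CPM in vehicle. Kcnj1, the potassium channel ROMK, was also within 1.5-fold in all 4 classes, between 558 and 922 CPM in CA3 and between 565 and 1024 CPM in vehicle.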

How the data were processed

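The data were 10x Genomics 3' single-cell libraries of whole mouse kidney, sequenced on a NextSeq instrument per the labels' protocols. The authors deposited raw UMI counts per gene and barcode, made with Cell Ranger 3.0.1 and mm10 per the submitters' processing notes; the sources used here give neither read filters nor how cells were called. Both groups, CA3 and vehicle, had 1 library, so no comparison across samples was tested.

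The members and lists were chosen with earlier results of these data known. Kept cells had 200 genes or more and no more than 80% mitochondrial UMIs (3541 of 3691 barcodes), which removed 90 CA3 and 60 vehicle barcodes. Total UMIs per barcode ran from 3506 to 115815 in CA3 and from 3784 to 112355 in vehicle. Clustering used scanpy 1.11.5 with 2000 variable genes, 30 components, 15 neighbours and Leiden resolution 1, without the members and mitochondrial genes. The 412 distal cells were clustered again into 12 sub-clusters (1000 genes, 15 components, 10 neighbours). Classes were named from 18 marker lists, and a sub-cluster of 10 CA3 and 10 vehicle cells with limb and convoluted markers was left out. Names are rebuilt here, and Nos1, a macula densa marker in the limb list, had 0 UMIs in the limb class.

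Levels are class sums per 1000000 non-mitochondrial UMIs with exact Poisson intervals. Ratios have exact conditional binomial intervals and shares exact Clopper-Pearson intervals (95%, scipy 1.17.1). They cover counting error only. Shares of cells came from cells thinned to 1000 non-mitochondrial UMIs. Beside the members, each class names up to 4 list genes past 1.5-fold with at least 20 UMIs, by the interval bound farthest from 1, and 9 list genes whatever their values. The result of 1 list gene that this rule names is not reported here. Likeness used genes with at least 50 UMIs in all cells and classes with at least 10 cells per library. The class sums and intervals were tested on simulated counts. Gene positions are from GENCODE vM21 on mm10. Alternatives changed the mitochondrial limit, denominator, summing, depth, clustering, classes and count minimum.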

Additional observations from a re-analysis of the deposited data

Results flagged for a closer look

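The ratio of CA3 over vehicle ran in opposite directions in the principal-like and the thick ascending limb-like class for both calbindin genes. For Calb1 the ratio was 2.42 in principal-like and 0.137 in thick ascending limb-like cells, a 17.66-fold gap between the classes. For S100g it was 3.54 in principal-like and 0.335 in limb cells, a 10.58-fold gap. The difference between the classes was not tested, since each ratio rests on 1 library per group. Of the limb UMIs in vehicle, 3 cells held 81.0% for Calb1 and 79.7% for S100g, and without the 3 cells with most S100g in each library its ratio in the limb was 1.22.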

How the results depend on the processing

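No paired analysis was possible because each group has 1 library, and no replicate could be left out for the same reason. The number of members past 1.5-fold, 3 in the thick ascending limb-like class, was 1 at a mitochondrial limit of 25% and 7 with no minimum of UMIs. In the distal convoluted-like class it was 2, against 5 at the 25% limit, 1 with the mean of cell CPM, 5 without the 3 cells with most UMIs of the gene, 1 with cells thinned to 1000 UMIs, 6 with each library clustered on its own and 6 with no minimum. In the distal convoluted/connecting-like class it was 3, against 1 at the 25% limit, 5 at sub-cluster resolution 0.5, 5 with classes gated on markers and 7 with no minimum. In the principal-like class it was 4, against 2 with the mean of cell CPM, 1 with thinned cells, 2 in cells at or over 5000 CPM of S100g, 2 in cells without a UMI of Slc12a1 and 9 with no minimum.

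The direction turned for S100g in the limb class at the 25% limit (ratio 1.26), without the 3 cells with most S100g (1.22), with each library clustered on its own (1.14) and with gated classes (1.46). It also turned for Trpm6 in distal convoluted/connecting-like cells at resolution 0.5 (1.13), for S100g in principal-like cells under 5000 CPM of S100g (0.473) and for Trpv5 in principal-like cells after thinning (0.444, from 4 UMIs), and Trpv5 had 0 UMIs in CA3 and 6 in vehicle cells under the S100g split. The split uses S100g itself, so its S100g values say nothing on the difference. The cause was not tested. Casr in the limb and Egf in the distal convoluted-like class were past 1.5-fold in 13 of 13 alternatives, and Egf in distal convoluted/connecting-like cells in 11 of 11. In principal-like cells S100g was past 1.5-fold in 13 of 14, Calb1 in 10 and Trpv5 in 9. For S100g this tally includes the alternatives split on S100g itself, which carry no weight for it. Of the recomputed ratios of all counted genes, 170 stayed within the counting interval of the reported value, 115 moved outside it and 7 turned a called direction. With each library clustered on its own, the distal convoluted/connecting-like class has no value, since 0 CA3 cells formed it; the CA3 distal convoluted-like class then held 60 cells, and its ratios were 2.95 for Calb1, 13.7 for S100g and 3.71 for Slc8a1. At resolution 0.5 the ratios in distal convoluted/connecting-like cells were 0.625 for Calb1 and 0.651 for S100g. The alternatives with the S100g split, with or without single sub-clusters and without cells holding Slc12a1 or Slc12a3 were chosen after seeing the data. Leaving out cells with a UMI of a gene also favours shallow cells.

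Depth limits the low genes most: Casr in the limb rests on 82 UMIs, and Trpv5 in the limb and the distal convoluted-like class on fewer than 10 each.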

Other observations

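Outside the 4 distal classes, Egf had 164 CPM in CA3 and 14.9 CPM in vehicle intercalated-like cells (45 and 3 UMIs), and 15.9 and 450 CPM in thin limb-like cells (3 and 138 UMIs). Of these UMIs 3 cells held all 45 in CA3 intercalated-like cells and 107 of the 138 in vehicle thin limb-like cells. In endothelial-like cells, which do not belong to the tubule, Egf had 1486 CPM in CA3 and 374 CPM in vehicle. There 3 cells held 381 of 406 UMIs in CA3 and 189 of 209 in vehicle, and the median cell had 0 CPM in both. The limb markers summed to 6780 CPM in CA3 and 3030 CPM in vehicle endothelial-like cells. Their part in the Egf level was not tested. The 10 CA3 and 10 vehicle cells of the unnamed sub-cluster with limb and convoluted markers had 4492 CPM of Egf in CA3 and 10882 CPM in vehicle, and 2033 and 2455 CPM of S100g. Over all kept cells the ratios of CA3 over vehicle were 0.526 for Slc8a1, 0.659 for Trpm6, 0.527 for Egf and 0.612 for Cldn16.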
